A study of Mus musculus with 12 samples.

Results

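Potassium channel genes were taken as every gene symbol in the platform annotation that begins with Kcn, the symbol stem of potassium channel subunits, together with Abcc8 and Abcc9, the sulfonylurea receptors that regulate ATP-sensitive potassium channels. This gave 94 genes among the 19938 genes measured. The choice used names only, no expression value. Each gene was represented by its probe set with the highest mean, among 97 probe sets that carried 1 symbol. Kcna2, Kcnh8 and Kcnma1 had more than 1.

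Potassium channels let potassium leave the cell along its gradient, which pulls the membrane voltage negative and closes voltage-gated calcium channels. In arterial smooth muscle this relaxes the wall, and in heart muscle it ends the action potential and sets the resting voltage. The pore-forming genes include voltage-gated channels (Kcna to Kcnd, Kcnf, Kcng, Kcnh, Kcnq, Kcns and Kcnv). Others are calcium- or sodium-activated channels (Kcnma, Kcnn and Kcnt), inward rectifiers (Kcnj), two-pore leak channels (Kcnk) and a sperm channel (Kcnu). Kcnab, Kcne, Kcnip, Kcnmb and the Abcc receptors encode partner subunits that set gating and trafficking.

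Trizol-extracted total RNA came from the ascending aorta, the descending aorta, the coronary artery and the superior mesenteric artery of wild-type mice of strain C57BL/6, 8 weeks old and untreated, and was hybridised to 12 Affymetrix arrays, 3 biological replicates per vessel. The stated aim was to find expression profiles particular to embryonic origin. Whether a replicate stands for 1 mouse or several is not stated in the labels, so a p-value here reflects only how far these samples spread. Values are the deposited log2 levels, so a difference of 1 is a 2-fold difference, and a level of 1 gene's probe set cannot be set against that of another's.

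Several arrays carried transcripts of tissue other than vessel wall, judged by the mean log2 level of marker lists. The cardiomyocyte list of 16 genes averaged 10.24 to 10.40 in the coronary arrays and 4.10 to 5.96 in the other 9. Smooth muscle markers, 12 genes, averaged 5.54 to 5.81 in coronary artery and 6.07 to 9.2 elsewhere. Within ascending aorta their mean was lowest in replicate 1 (6.33, against 8.14 and 8.20), and within superior mesenteric artery it was highest in replicate 1 (9.2, against 6.07 and 6.51). B cell markers averaged 6.81 and 6.55 in superior mesenteric replicates 2 and 3 and 7.90 in ascending replicate 1, against 3.77 to 4.88 in the other 9 arrays. Pancreatic acinar markers averaged 9.61 in superior mesenteric replicate 3 and 3.42 to 5.30 in the rest. Brown adipocyte markers averaged 7.71 to 8.39 in descending aorta and 6.76 to 7.66 in ascending aorta. They averaged 5.93 to 6.14 in coronary artery and 4.07 to 4.99 in superior mesenteric artery. Adipocyte markers averaged 8.51 to 9.20 in descending aorta and 6.08 to 8.73 in the rest. The samples are bulk tissue, so fewer cells of a type and less RNA per cell cannot be told apart.

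The potassium channel genes differed between vessels about as often as other genes. In limma's moderated F test over the 4 vessels, 5 of the 94 passed an adjusted p of 0.05 (5.32%), against 4.72% of all genes: Kcnj5, Kcnj3, Kcne1, Kcnd2 and Kcnip2. At an unadjusted p under 0.05 there were 17 (18.1%), against 16.4% of all genes. All 5 were higher in coronary artery than in each other vessel. The median spread between replicates was like that of other genes, with a residual SD of 0.29 in both. The array-to-array range of a gene was over 2 log2 units in 15 members and under 1 in 40.

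**Figure D1:**
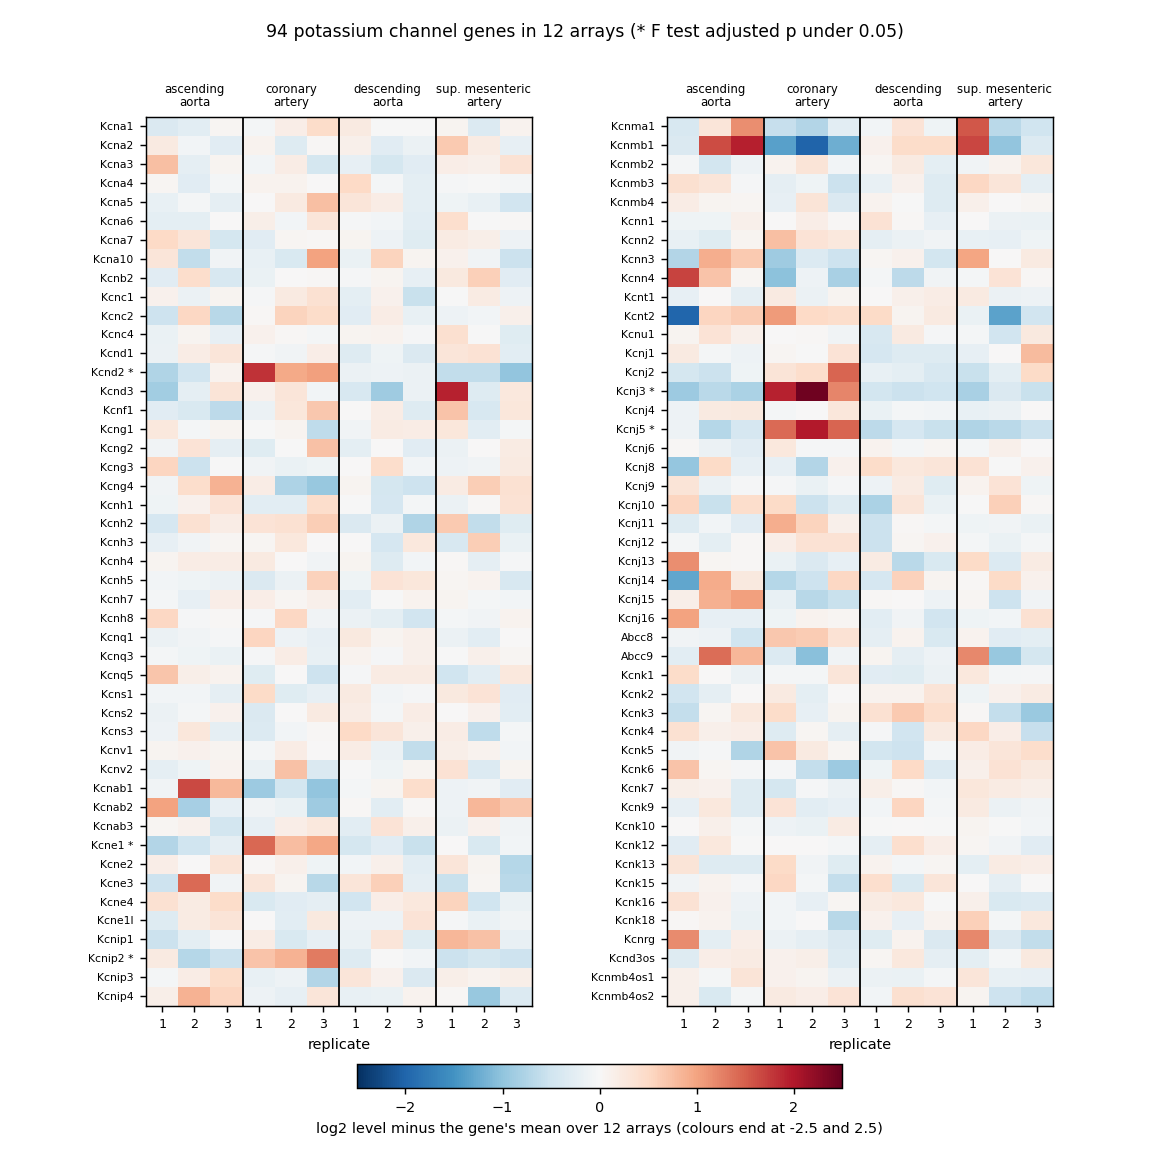
Log2 level of each of the 94 genes in each of the 12 arrays, drawn as the difference from that gene's own mean over the arrays, with genes as rows, replicates as columns and vessels separated by black lines. Asterisks mark the 5 genes past the F test, whose 3 coronary arrays are red throughout, while Kcnmb1, Kcnma1, Abcc9 and Kcnn3 differ between replicates of ascending aorta and of superior mesenteric artery.

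Kcnj3 and Kcnj5 encode the subunits of the G-protein-gated inward rectifier that acetylcholine opens in cardiac muscle. Kcnj3 measured 5.76, 6.27 and 5.06 in the 3 coronary arrays. It measured 2.93, 3.16 and 3.05 in ascending aorta, 3.38, 3.31 and 3.33 in descending aorta and 3.02, 3.47 and 3.27 in superior mesenteric artery. All coronary arrays lay well above the other 9, and the groups did not overlap. The coronary mean was 2.65 ± 0.26 (SE, n = 3 per vessel) above ascending aorta (6.27-fold, limma adjusted p = 6e-05), 2.36 above descending aorta (5.13-fold, limma adjusted p = 0.00016) and 2.44 above superior mesenteric artery (5.44-fold, limma adjusted p = 0.000124). These 3 differences share the coronary arrays and are not independent.

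Kcnj5 followed the same order of vessels at the top. It measured 4.36, 4.93 and 4.39 in coronary artery, against 2.81, 2.23 and 2.53 in ascending aorta, 2.28, 2.52 and 2.39 in descending aorta and 2.19, 2.28 and 2.40 in superior mesenteric artery. The 9 arrays outside the coronary artery spanned 2.19 to 2.81, and the 3 vessels overlapped there. The coronary mean was higher by 2.04 ± 0.20 than in ascending aorta (4.10-fold, limma adjusted p = 8.22e-05), by 2.16 than in descending aorta (4.48-fold, limma adjusted p = 4.53e-05) and by 2.27 than in superior mesenteric artery (4.83-fold, limma adjusted p = 3.03e-05). For Kcnj3, Kcnj5 and Kcne1 every one of these calls held under all 23 alternative settings. The table holds no detection calls, so whether these genes were above background in the other 3 vessels was not tested, and the folds are those of the deposited values.

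The other inward rectifier partners of that group, Kcnj6 and Kcnj9, which form G-protein-gated channels mainly in neurons, did not pass. Kcnj6 averaged 2.55 ± 0.17 (SD, n = 3) in coronary artery and 2.35 to 2.51 in the other vessels (F test adjusted p = 0.837, limma). Kcnj9 averaged 2.41 ± 0.07 in coronary artery and 2.42 to 2.59 elsewhere (F test adjusted p = 0.892, limma).

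Kcnd2 encodes a pore subunit of the fast transient outward current, and Kcnip2 the calcium-binding partner that carries this subunit to the membrane. Kcnd2 measured 5.31, 4.46 and 4.53 in coronary artery. It measured 2.75, 3.02 and 3.6 in ascending aorta, 3.36, 3.38 and 3.36 in descending aorta and 2.90, 2.89 and 2.51 in superior mesenteric artery. The coronary arrays were again all above the other 9. The coronary excess was 1.64 ± 0.26 over ascending aorta (3.13-fold, limma adjusted p = 0.00389), 1.40 over descending aorta (2.64-fold, limma adjusted p = 0.0094) and 2.0 over superior mesenteric artery (4.0-fold, limma adjusted p = 0.000765). Fitted on only the 6 arrays of the pair, the difference from ascending aorta had an adjusted p of 0.0651 in limma.

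Kcnip2 measured 4.31, 4.45 and 4.90 in coronary artery, against 3.82, 2.89 and 3.06 in ascending aorta, 3.27, 3.59 and 3.53 in descending aorta and 3.05, 3.16 and 3.08 in superior mesenteric artery. The nearest array outside the coronary artery was ascending aorta replicate 1. The coronary mean was 1.30 ± 0.24 above ascending aorta (2.45-fold, limma adjusted p = 0.0131), 1.09 above descending aorta (2.13-fold, limma adjusted p = 0.0291) and 1.46 above superior mesenteric artery (2.74-fold, limma adjusted p = 0.00486). Single arrays decided the first 2 of these calls. Against ascending aorta, limma's adjusted p was 0.0567 without ascending replicate 2, 0.075 without coronary replicate 3 and 0.115 with only the 6 arrays of the pair. Against descending aorta it was 0.078 and 0.132 without coronary replicates 2 and 3, and 0.13, 0.0808 and 0.0792 without descending replicates 1, 2 and 3. The F test adjusted p was 0.0693 without coronary replicate 3.

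The relatives of these genes did not move with them past the test. Kcnd3, another transient outward pore subunit, measured 5.03, 5.23 and 4.85 in coronary artery, inside the 4.03 to 6.84 span of the other arrays (F test adjusted p = 0.497, limma). Kcnd1 averaged 3.71 ± 0.13 in coronary artery and 3.43 to 3.83 elsewhere (F test adjusted p = 0.581, limma). Kcnip1, Kcnip3 and Kcnip4 had F test adjusted p-values of 0.426, 0.445 and 0.213 in limma.

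Kcne1 encodes a small membrane protein that slows the Kcnq1 channel and so shapes the slow delayed rectifier current. It measured 4.75, 4.09 and 4.28 in coronary artery. Elsewhere it measured 2.58, 2.81 and 3.08 in ascending aorta, 2.88, 3.02 and 2.75 in descending aorta and 3.33, 2.93 and 3.23 in superior mesenteric artery. The groups did not overlap. The coronary mean was 1.55 ± 0.21 above ascending aorta (2.93-fold, limma adjusted p = 0.0012), 1.49 above descending aorta (2.80-fold, limma adjusted p = 0.00152) and 1.21 above superior mesenteric artery (2.31-fold, limma adjusted p = 0.00695). Its pore partner Kcnq1 measured 4.18, 3.52 and 3.43 in coronary artery and 3.38 to 3.89 in the other arrays, which overlap (F test adjusted p = 0.771, limma). Among the other beta subunits of this family, Kcne2, Kcne3, Kcne4 and Kcne1l had F test adjusted p-values of 0.512 to 0.953 in limma.

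**Figure D2:**
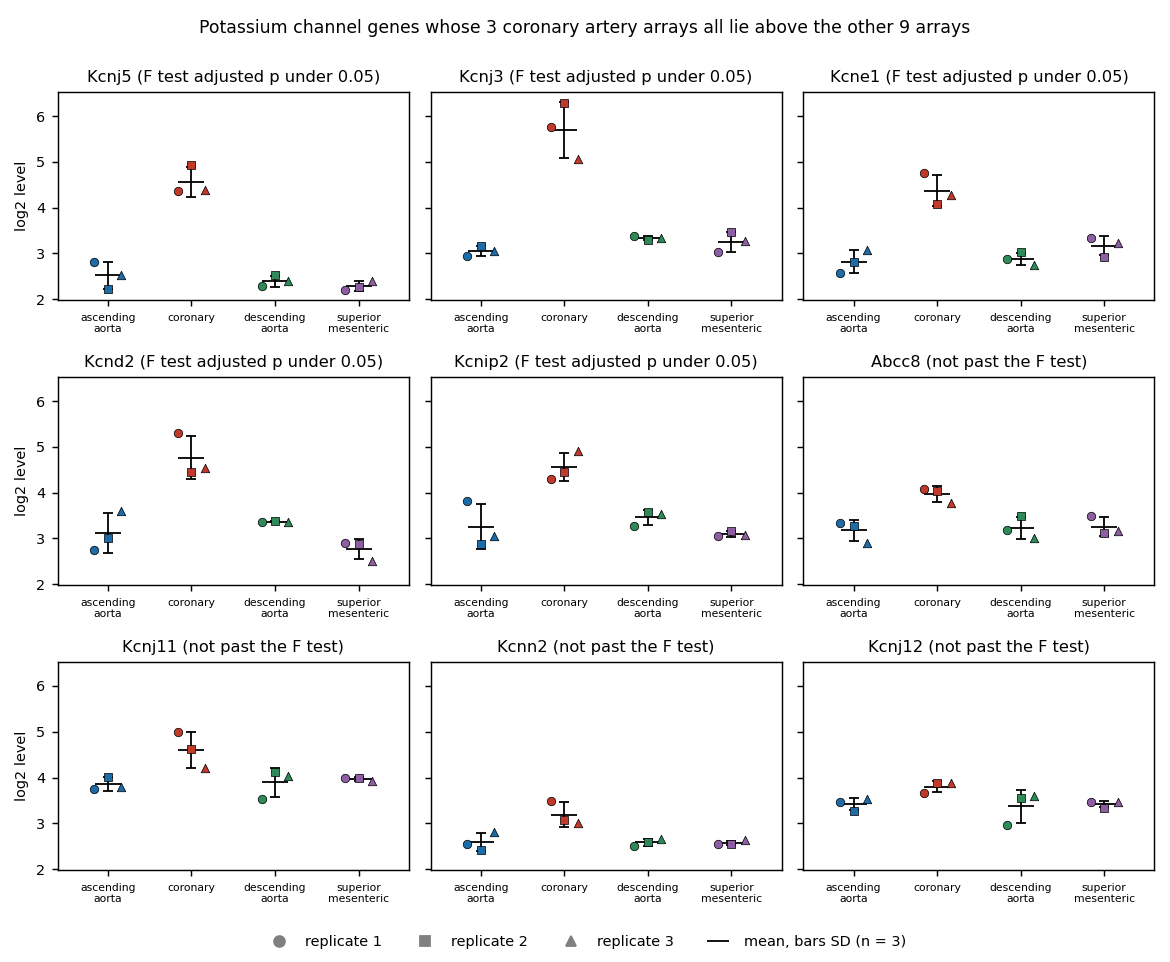
Log2 level by vessel of the 9 members whose 3 coronary arrays all lie above the other 9 arrays, with replicates as points and bars as mean ± SD of 3 arrays on a common axis. Kcnj3 spans 5.06 to 6.27 in coronary artery and 2.93 to 3.47 in the other arrays, while Kcnj12 separates by a narrow margin and did not pass the F test.

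The genes past the F test were higher in coronary artery than in each other vessel, so the sequences in front of them are shown. RefSeq windows on GRCm38.p6 gave the 250 bases before the annotated start for 71 of the 94 genes, 96 windows in all, among them 4 of the 5 past the F test. Each is printed 5′ to 3′ on the gene's strand, with any GGGCGG, the motif of GC boxes, in capitals. The Kcnj3 window is chr2:55435720-55435969 on the plus strand and the Kcnj5 window chr9:32344345-32344594 on the minus strand. The Kcnd2 window is chr6:21215096-21215345 on the plus strand and the Kcnip2 window chr19:45816064-45816313 on the minus strand.
Kcnj3: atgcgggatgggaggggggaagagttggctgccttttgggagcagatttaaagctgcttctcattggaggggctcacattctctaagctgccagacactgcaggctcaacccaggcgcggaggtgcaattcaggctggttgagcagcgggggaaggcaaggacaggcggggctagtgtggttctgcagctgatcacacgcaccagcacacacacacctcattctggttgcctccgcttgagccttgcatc
Kcnj5: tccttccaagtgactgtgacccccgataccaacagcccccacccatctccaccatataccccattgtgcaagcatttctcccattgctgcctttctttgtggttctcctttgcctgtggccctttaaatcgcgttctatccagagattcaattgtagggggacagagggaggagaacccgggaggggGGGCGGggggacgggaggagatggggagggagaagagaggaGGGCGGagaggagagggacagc
Kcnd2: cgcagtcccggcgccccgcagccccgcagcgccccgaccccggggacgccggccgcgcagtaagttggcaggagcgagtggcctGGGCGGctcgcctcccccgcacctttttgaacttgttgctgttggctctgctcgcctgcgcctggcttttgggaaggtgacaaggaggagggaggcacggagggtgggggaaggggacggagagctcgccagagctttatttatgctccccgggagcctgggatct
Kcnip2: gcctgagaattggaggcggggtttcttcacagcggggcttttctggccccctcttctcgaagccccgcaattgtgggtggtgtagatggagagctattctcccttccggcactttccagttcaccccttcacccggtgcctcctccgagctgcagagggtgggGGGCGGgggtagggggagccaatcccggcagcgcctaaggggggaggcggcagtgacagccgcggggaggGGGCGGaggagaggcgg

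Motifs were searched on both strands of these windows. Kcnj5 held GGGCGG at 63 to 58 and 22 to 17 bases before the start, Kcnd2 at 166 to 161 and Kcnip2 at 87 to 82 and 17 to 12, while the Kcnj3 window had none. Over all members GGGCGG was in 43 of 96 windows (44.8%), against 32.7% of 32851 windows of the same length; this motif was added after the sequences had been seen. The CArG box of serum response factor was in 0 member windows (1.47% of all windows), and the MEF2 site, bound by a muscle transcription factor, was in 1, that of Kcnj9 (0.508% of all windows). TATAAA was in 3 member windows (3.12%, against 12.4%) and CACGTG in 6 (6.25%, against 6.02%). A match or its lack describes these letters only.

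A list of 14 measured channel genes known from heart muscle held all 5 genes past the F test, and 8 of the 14 had every coronary array above the other 9. That list was drawn up with earlier results of these data known, so its count is not independent evidence. Over all members, 9 of 94 had every coronary array above the other 9 arrays (9.57%), against 3.49% of all genes. Beside the 5 genes already described these were Abcc8, Kcnj11, Kcnn2 and Kcnj12. Every one of the 16 cardiomyocyte markers was higher in the coronary arrays, for example Myl2, a ventricular myosin light chain, at 11.94 to 12.20 against 3.09 to 3.95. Their part in the channel differences was not tested. Descending aorta replicate 1 had the highest cardiomyocyte list mean outside the coronary artery, 5.96 against 4.26 and 4.10 in its fellow replicates. In that array Kcnj5 was at 2.28, below the 2.52 and 2.39 of the others, and Kcnj3 at 3.38, above their 3.31 and 3.33. Values of the other genes past the F test in that array are given above. Its list mean was itself far below the 10.24 to 10.40 of the coronary arrays, and its bearing on these genes was not tested.

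Kcnj11 and Abcc8 encode the pore and receptor of an ATP-sensitive channel found in islets and heart, and lie next to each other on chromosome 7. Abcc8 measured 4.09, 4.04 and 3.77 in coronary artery and 2.91 to 3.49 elsewhere. Its coronary mean was 0.79 ± 0.20 above ascending aorta, short of the threshold (limma adjusted p = 0.0556). This contrast passed in 5 alternative settings, with limma adjusted p-values of 0.0136 to 0.0482, among them 0.0424 without ascending aorta replicate 1. Abcc8 also passed against descending aorta in 3 settings and against superior mesenteric artery in 2. Abcc8 passed the F test in 2 of 22 alternatives (limma adjusted p up to 0.266). Kcnj11 measured 4.99, 4.63 and 4.20 in coronary artery and 3.54 to 4.11 elsewhere (F test adjusted p = 0.158, limma). Neither gene passed in the main fit, although the coronary arrays did not overlap with the rest in either. Pancreatic islet markers averaged 3.07 to 3.47 over the 12 arrays, with 3.10 to 3.47 in coronary artery.

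Kcnn2, a small-conductance calcium-activated channel of atrial muscle and neurons, measured 3.50, 3.07 and 3.0 in coronary artery and 2.43 to 2.81 elsewhere (F test adjusted p = 0.127, limma). Kcnj12 and Kcnj2 encode the strong inward rectifiers that hold the resting voltage. Kcnj12 measured 3.66, 3.87 and 3.87 in coronary artery and 2.96 to 3.61 elsewhere (F test adjusted p = 0.484, limma). Kcnj2 measured 3.10, 3.21 and 4.23 in coronary artery, and superior mesenteric replicate 3 reached 3.25, so its groups overlapped (F test adjusted p = 0.152, limma). These 3 genes had higher coronary means, by 0.60, 0.38 and 1.10 against ascending aorta, without passing the test.

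The other listed heart channels overlapped between vessels. Kcnh2, the pore of the rapid delayed rectifier, measured 4.52, 4.55 and 4.78 in coronary artery and 3.42 to 4.83 elsewhere. Its coronary mean was 0.87 ± 0.31 above descending aorta (limma adjusted p = 0.218). Kcna5, the ultrarapid delayed rectifier, measured 3.02, 3.23 and 3.75 in coronary artery and 2.52 to 3.30 elsewhere (F test adjusted p = 0.383, limma).

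**Figure D3:**
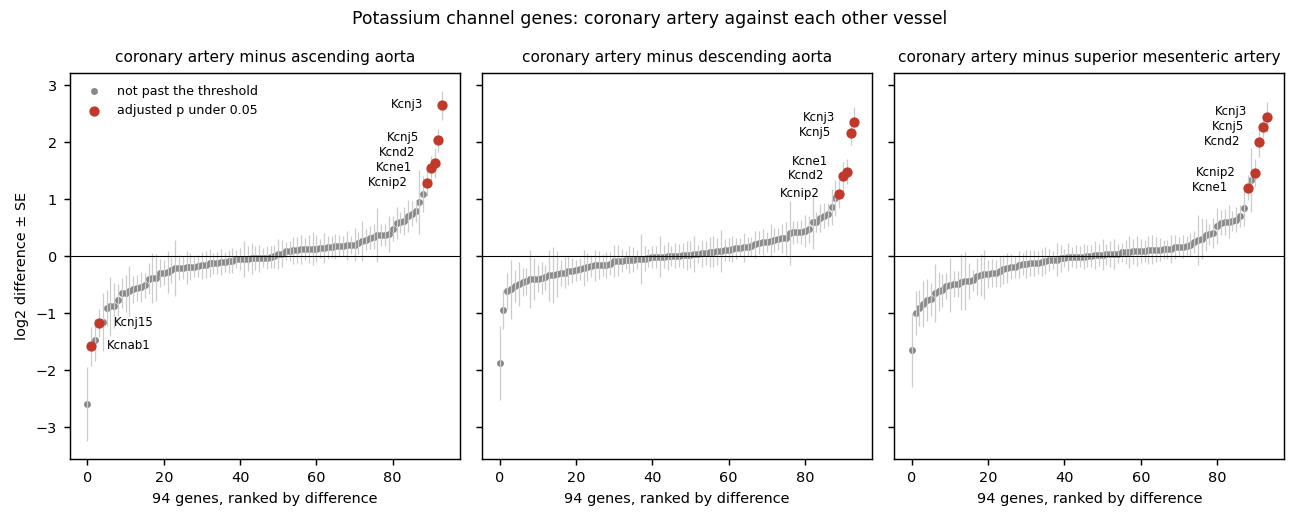
Log2 difference between coronary artery and each other vessel for the 94 genes, each panel ranked by its own differences, with bars as standard error and red points as adjusted p under 0.05 in limma. The 5 genes Kcnj3, Kcnj5, Kcnd2, Kcne1 and Kcnip2 are red at the high end of every panel, and Kcnab1 and Kcnj15 are red at the low end against ascending aorta alone.

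By pair of vessels, the calls were limited to contrasts with coronary artery. Against ascending aorta, 5 members were higher in coronary artery, where 1.87% of all genes were, and 2 were lower, where 0.602% were. Against descending aorta 5 were higher (1.53% of all genes) and 0 lower (1.61%), and against superior mesenteric artery 5 were higher (2.71%) and 0 lower (0.527%). In limma, 0 members passed between ascending and descending aorta (0.0150% of all genes), where 5 had an unadjusted p under 0.05 (5.32%, against 9.64% of all genes). Between ascending aorta and superior mesenteric artery 0 passed (0.176%), with 6 at an unadjusted p under 0.05 (6.38%, against 7.22% of all genes). Between descending aorta and superior mesenteric artery 0 passed (3.20%), with 7 at an unadjusted p under 0.05 (7.45%, against 13.9%). The median difference over the members was between -0.04 and 0.03 in the 6 contrasts, and over all genes between -0.02 and 0.00. The count of 7 members between ascending aorta and coronary artery was 4 without ascending replicate 2 and 4 without coronary replicate 3. Without ascending replicate 1, the counts against descending aorta and superior mesenteric artery were 8 each. The F test then gave 11 and the contrast of ascending aorta with superior mesenteric artery 4. Shares of all genes without these arrays are not given, so these counts are not a result about the members. Between descending aorta and superior mesenteric artery 1 member, Kcnk3, passed without ascending replicate 1 and also without superior mesenteric replicate 1.

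Kcnab1 and Kcnj15 were higher in ascending aorta than in coronary artery. Kcnab1, a cytoplasmic beta subunit that speeds inactivation of voltage-gated channels, measured 4.16, 5.90 and 5.04 in ascending aorta and 3.34, 3.78 and 3.27 in coronary artery, and lay between 3.96 and 4.69 in the other vessels. All 3 coronary arrays were below the other 9. The ascending mean was higher by 1.57 ± 0.34 (2.98-fold, limma adjusted p = 0.0302). Leaving out single arrays ended this call: limma's adjusted p was 0.066 and 0.0716 without ascending replicates 2 and 3, 0.107, 0.0567 and 0.133 without coronary replicates 1, 2 and 3, and 0.0501 and 0.0512 without descending replicates 1 and 2. A fit to the pair's 6 arrays alone gave 0.179. Without ascending replicate 1 the difference was 2.01 (limma adjusted p = 0.000575).

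Kcnj15 encodes an inward rectifier of epithelia. It measured 3.71, 4.46 and 4.61 in ascending aorta and 3.38, 2.89 and 3.01 in coronary artery, with 3.06 to 3.62 in the remaining arrays. Ascending aorta lay above all other arrays. The ascending mean was 1.17 ± 0.25 above coronary artery (2.24-fold, limma adjusted p = 0.0264). The adjusted p was 0.0889 and 0.0844 without ascending replicates 2 and 3 and 0.112 without either coronary replicate 2 or coronary replicate 3. A fit to the pair's 6 arrays alone gave 0.138. Neither gene passed the F test over 4 vessels, with adjusted p-values of 0.0728 for Kcnab1 and 0.0585 for Kcnj15 in limma.

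Among channels of the vessel wall, the smooth muscle list had 14 genes measured and 0 past the F test in limma, against 4.72% of all genes. A count of 0 in a list of 14 is not far from that share. Kcnmb1, the beta subunit that makes the large-conductance calcium-activated channel of smooth muscle more sensitive to calcium, varied widely between replicates. It measured 5.18, 7.16 and 7.47 in ascending aorta, 4.17, 3.54 and 4.31 in coronary artery, 5.65, 5.99 and 6.0 in descending aorta and 7.21, 4.54 and 5.19 in superior mesenteric artery. The coronary arrays were below all other 9, as in Kcnab1; 2 of 94 members had this order (2.13%), against 1.83% of all genes. The ascending mean was 2.60 ± 0.65 above coronary artery, which missed the threshold (6.04-fold, limma adjusted p = 0.0577). The adjusted p was 0.00367 without ascending replicate 1, 0.0137 without superior mesenteric replicate 1 and 0.0425 without superior mesenteric replicate 2. In the F test Kcnmb1 passed in 5 of 22 alternatives, with adjusted p-values up to 0.361 in limma.

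The pore gene of that channel, Kcnma1, measured 3.24, 3.95 and 4.80 in ascending aorta, 3.07, 2.91 and 3.38 in coronary artery, 3.57, 3.98 and 3.53 in descending aorta and 5.19, 2.96 and 3.14 in superior mesenteric artery (F test adjusted p = 0.712, limma). Its replicates in superior mesenteric artery spanned more than the vessel means did. A second Kcnma1 probe set ran from 1.48 to 2.73 and did not follow this order, with its highest value in coronary replicate 1.

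Abcc9 and Kcnj8, the receptor and pore of the vascular ATP-sensitive channel, are neighbours on chromosome 6. Abcc9 measured 6.28, 7.93 and 7.36 in ascending aorta, 6.18, 5.48 and 6.44 in coronary artery, 6.6, 6.30 and 6.40 in descending aorta and 7.74, 5.58 and 6.09 in superior mesenteric artery. Its ascending mean was 1.15 ± 0.51 above coronary artery (limma adjusted p = 0.32). Adjusted for the mean of the B and T cell lists, the difference was 1.69 ± 0.32 (limma adjusted p = 0.00797). Abcc9 passed the F test in 1 of 22 alternatives (limma adjusted p up to 0.788). Kcnj8 measured 4.45, 5.89 and 5.21 in ascending aorta, 5.21, 4.68 and 5.52 in coronary artery, 5.87, 5.66 and 5.72 in descending aorta and 5.77, 5.40 and 5.52 in superior mesenteric artery (F test adjusted p = 0.549, limma). In both genes the vessels overlapped.

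**Figure D4:**
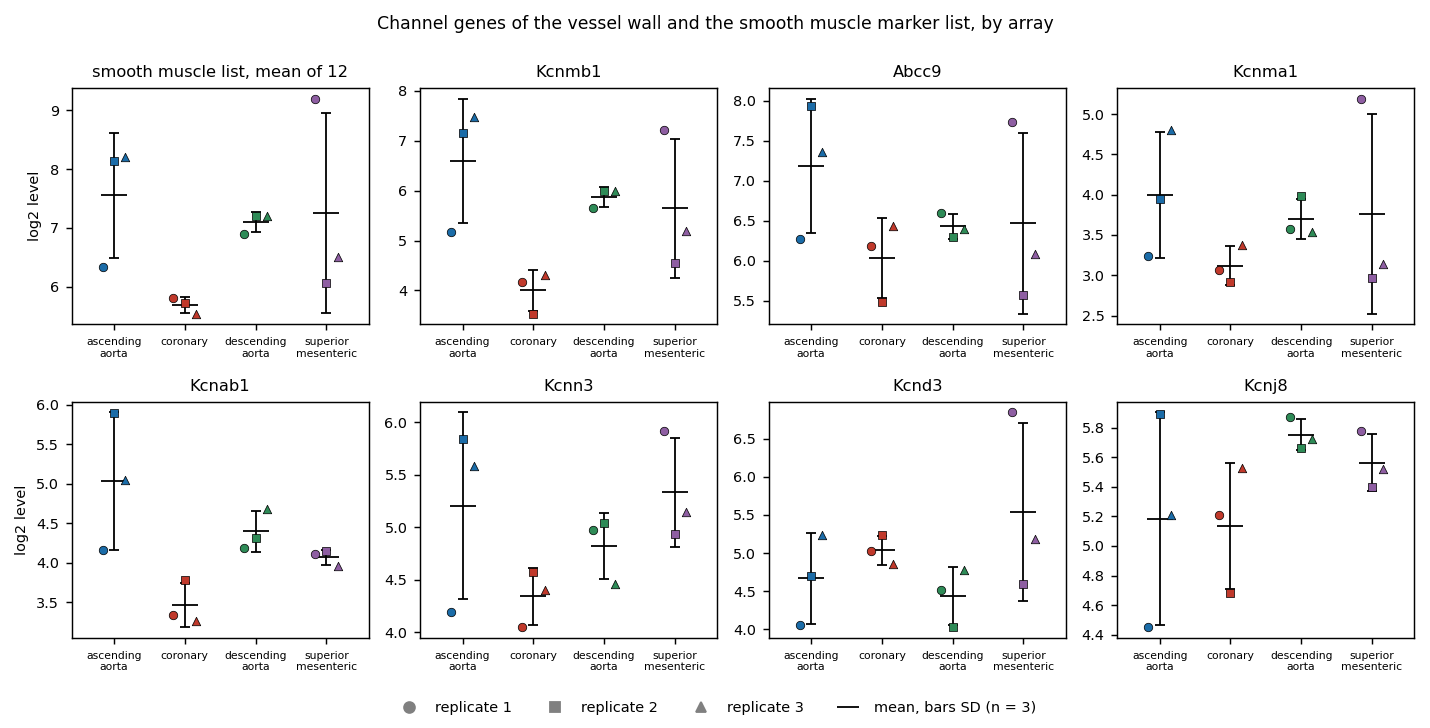
Mean log2 level of the 12 smooth muscle markers and log2 level of 7 channel genes by vessel, with replicates as points, bars as mean ± SD of 3 arrays and an axis of its own in each panel. In the marker list replicate 1 is the lowest of ascending aorta and the highest of superior mesenteric artery. Kcnmb1, Abcc9, Kcnma1, Kcnn3, Kcnd3 and Kcnj8 share this order, and Kcnab1 only its ascending aorta part. The genes drawn are a selection, and Kcnk6 and Kcnq5 of the smooth muscle channel list, not drawn, have the opposite order.

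Replicate 1 was the lowest of the ascending aorta arrays and the highest of the superior mesenteric arrays in 19 of the 94 genes (20.2%), the order of the smooth muscle list, and in 15.6% of all genes. Beside those drawn, Kcnk3, Kcnh2 and Kcnt2 had this order, as did Kcnd2, Kcne1 and Kcnj15, which were called in contrasts with coronary artery. Kcnk6 and Kcnq5, both on the smooth muscle channel list, had the opposite order. The part of smooth muscle content in these values was not tested. Kcnk3, an acid-sensitive leak channel of smooth muscle and heart, measured 6.42, 6.70 and 6.49 in descending aorta and 6.07, 5.45 and 5.11 in superior mesenteric artery. These groups did not overlap, and the difference of 0.99 ± 0.28 missed the threshold (limma adjusted p = 0.091). Limma's adjusted p was 0.0284 without ascending replicate 1 and 0.0391 without superior mesenteric replicate 1. Kcnk3 passed the F test in 1 of 22 alternatives (limma adjusted p up to 0.46). Across the same descending and superior mesenteric arrays the brown adipocyte list averaged 7.71 to 8.39 and 4.07 to 4.99, in that order. The part of fat in the Kcnk3 values was not tested. Kcnt2, a sodium-activated channel, measured 2.93 in ascending replicate 1 and 5.44 and 5.55 in the other ascending arrays. Without replicate 1 its F test adjusted p was 0.0233, and with it 0.478 in limma. Kcnt2 passed in only this 1 of 22 alternatives (F test adjusted p up to 0.73, limma).

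Kcna2, Kcns3, Kcnq5 and Kcnk2, also on the smooth muscle list, did not pass the F test. Values of Kcnj2, Kcnj12, Kcna5, Kcnq1 and Kcnk6 of that list are given in other paragraphs. Kcna2, a delayed rectifier, had means of 4.70 to 5.02, and Kcns3, a silent subunit that modifies other voltage-gated pores, of 4.62 to 5.10 (F test adjusted p = 0.782 and 0.551, limma). Kcnq5, a slowly activating voltage-gated channel, had means of 2.71 to 3.29, and Kcnk2, a stretch-sensitive leak channel, of 3.29 to 3.70 (F test adjusted p = 0.431 and 0.58, limma).

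Kcnn3 and Kcnn4 are the calcium-activated channels of endothelium through which it hyperpolarises the wall, and Kcnn4 also serves lymphocytes. With Kcnj2 they made up the endothelial list, of which 0 of 3 passed the F test, against 4.72% of all genes. Kcnn3 measured 4.19, 5.84 and 5.58 in ascending aorta, 4.04, 4.58 and 4.40 in coronary artery, 4.97, 5.04 and 4.46 in descending aorta and 5.92, 4.93 and 5.15 in superior mesenteric artery (F test adjusted p = 0.415, limma). Its ascending mean was 0.86 ± 0.39 above coronary artery, which did not pass (limma adjusted p = 0.329). Without ascending replicate 1 the difference was 1.37 ± 0.29 (limma adjusted p = 0.0181). Kcnn3 passed the F test in 2 of 22 alternatives (limma adjusted p up to 0.63). The endothelial marker list averaged 6.26 to 6.57 in coronary artery, 5.25 to 6.27 in ascending aorta, 5.46 to 5.87 in descending aorta and 5.66 to 7.45 in superior mesenteric artery.

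Kcnn4 measured 6.47, 5.49 and 4.83 in ascending aorta, 3.75, 4.65 and 3.96 in coronary artery, 4.74, 4.13 and 4.69 in descending aorta and 4.73, 5.13 and 4.81 in superior mesenteric artery. The highest array was ascending replicate 1, which had the highest B and T cell list means too. The ascending mean was 1.47 ± 0.36 above coronary artery, short of the threshold (limma adjusted p = 0.0572), and 1.85 ± 0.34 without ascending replicate 3 (limma adjusted p = 0.0141). With the B and T cell mean as a covariate the difference was 1.13 ± 0.27 (limma adjusted p = 0.0297). Kcnn4 passed the F test in 1 of 22 alternatives (limma adjusted p up to 0.287).

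Kcna3, the voltage-gated channel of T cells, measured 5.51, 4.54 and 4.82 in ascending aorta, 4.70, 4.95 and 4.33 in coronary artery, 4.55, 4.31 and 4.48 in descending aorta and 4.92, 4.89 and 5.11 in superior mesenteric artery (F test adjusted p = 0.488, limma). Kcnab2, a beta subunit, measured 5.48, 3.66 and 4.28 in ascending aorta and 4.35, 5.32 and 5.15 in superior mesenteric artery, with 3.59 to 4.51 in the other arrays. Kcnk6, a leak channel on the smooth muscle list, measured 6.08, 5.41 and 5.34 in ascending aorta, 5.34, 4.76 and 4.46 in coronary artery, 5.25, 5.86 and 5.02 in descending aorta and 5.48, 5.73 and 5.61 in superior mesenteric artery. In all of these ascending replicate 1 was the highest array of the 12, as it was in both lymphocyte lists. The list of lymphocyte channels held only Kcna3 and Kcnn4. Kcnab2 and Kcnk6 were placed here by choice, so their order is not independent evidence. The share of all genes with this order is not given. The opposite order to the smooth muscle list, ascending replicate 1 highest and superior mesenteric replicate 1 lowest within its vessel, held in 14 members (14.9%), among them Kcnn4, Kcnab2, Kcnk6 and, of those high in coronary artery, Kcnj5 and Kcnip2, and in 13.1% of all genes. The part of lymphocyte RNA in these values was not tested.

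**Figure D5:**
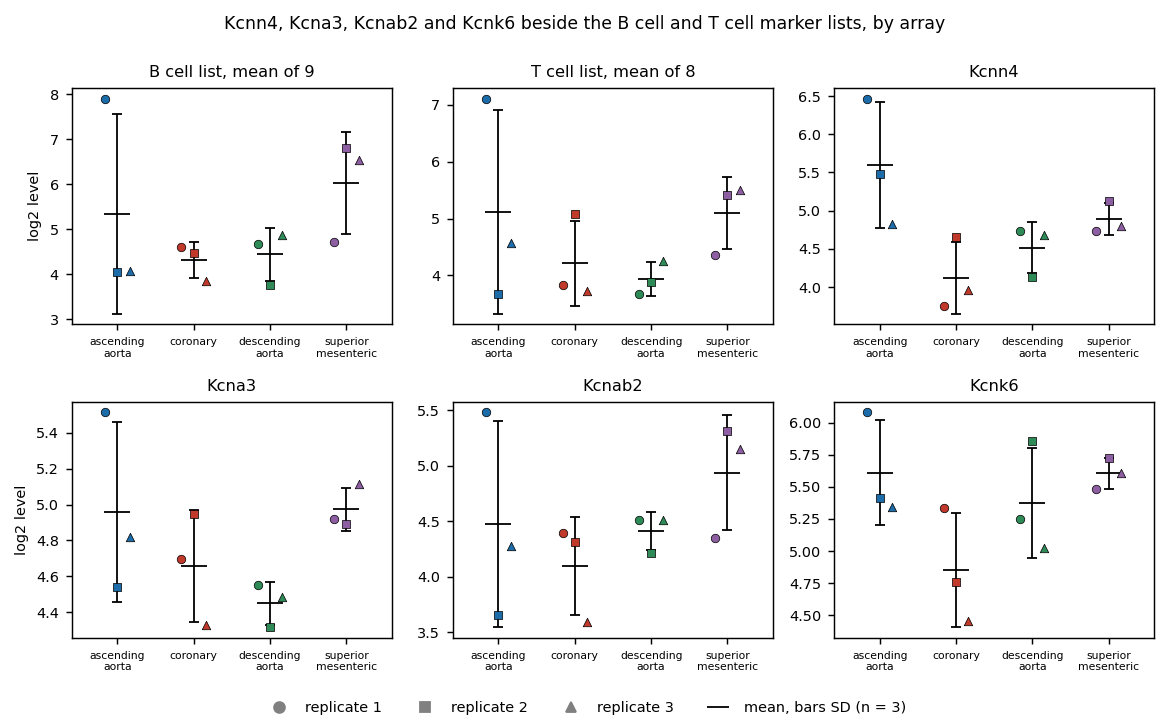
Mean log2 level of the 9 B cell and 8 T cell markers measured and log2 level of Kcnn4, Kcna3, Kcnab2 and Kcnk6 by vessel, with replicates as points, bars as mean ± SD of 3 arrays and an axis of its own in each panel. Ascending aorta replicate 1 is the highest point in every panel. Kcnab2 and Kcnk6 are not on the list of lymphocyte channels and were drawn by choice.

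Outside the Kcnj, Kcnd, Kcne and Kcnip families 0 members passed the F test in limma. The 15 inward rectifiers had 2 past it, Kcnj3 and Kcnj5, and the 14 two-pore leak channels had 0. Of all genes 4.72% passed, so counts in families this small tell little. Kcnj14 and Kcnj13 varied within vessels: Kcnj14 measured 1.83, 4.04 and 3.37 in ascending aorta (F test adjusted p = 0.923, limma), and Kcnj13, a weak inward rectifier of epithelia, 5.13, 4.02 and 4.01 there (F test adjusted p = 0.511, limma). For each family without a gene named so far, the gene with the highest mean was taken. Kcnc4, a voltage-gated channel, had vessel means of 3.88 to 4.03 (F test adjusted p = 0.937, limma). The silent voltage-gated subunits Kcnf1, Kcng1 and Kcnv2 had means of 2.33 to 3.04, 4.27 to 4.56 and 2.68 to 2.82, with F test adjusted p-values of 0.431, 0.791 and 0.981 in limma. Kcnb2, a delayed rectifier, and Kcnu1, a sperm channel, had means of 2.41 to 2.68 and 2.54 to 2.82, with F test adjusted p-values of 0.873 and 0.812 in limma.

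Kcne3, a beta subunit of epithelial channels, measured 3.04, 4.97 and 3.48 in ascending aorta, a wider span than its vessel means of 3.16 to 3.83. Kcnip3, a calcium sensor of the same family as Kcnip2, had vessel means of 3.37 to 3.92. Kcnrg, a regulator of voltage-gated channel assembly, measured 5.11 in ascending replicate 1 and 5.14 in superior mesenteric replicate 1 and 3.32 to 4.10 in the other 10 arrays. Kcnd3os, the opposite-strand RNA of the Kcnd3 locus, had means of 4.47 to 4.52 (F test adjusted p = 0.997, limma). The antisense RNAs Kcnmb4os1 and Kcnmb4os2 did not pass either, with F test adjusted p-values of 0.818 and 0.311 in limma.

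The vessel with the highest mean was ascending aorta in 31 members (33.0%) and coronary artery in 27 (28.7%), against 21.8% and 27.0% of all genes. It was descending aorta in 18 (19.1%, against 25.8%) and superior mesenteric artery in 18 (19.1%, against 25.3%). Most of these orders rest on differences that did not pass the test. Direct neighbours in the RefSeq genes of GRCm38.p6 made up 12 pairs of members, taking in 22 genes. The pair Kcnj5 and Kcnj1 on chromosome 9 differed in pattern: Kcnj1, an inward rectifier of the kidney, measured 2.62, 2.56 and 2.93 in coronary artery and 2.17 to 3.38 elsewhere (F test adjusted p = 0.496, limma). Kcnip1 and Kcnmb1, neighbours on chromosome 11, had F test adjusted p-values of 0.426 and 0.128 in limma.

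Genes that work with potassium channels were counted from separate lists, drawn up with earlier results known. Of 17 measured channel partner proteins 1 passed the F test, against 4.72% of all genes: Cav3, the muscle caveolin. It measured 5.88, 6.09 and 6.66 in coronary artery and 3.52 to 5.03 elsewhere. Its coronary mean was 1.75 ± 0.32 above ascending aorta (limma adjusted p = 0.0112), 2.18 above descending aorta (limma adjusted p = 0.00204) and 2.21 above superior mesenteric artery (limma adjusted p = 0.0017), and the first of these had an adjusted p of 0.069 without coronary replicate 3 and 0.0673 with only the 6 arrays of the pair. Flna, the actin-binding filamin, came next and measured 6.23, 6.19 and 5.67 in coronary artery against 6.98 to 9.79 elsewhere (F test adjusted p = 0.116, limma).

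Of 11 measured sodium-potassium pump subunits, the pump that builds the potassium gradient, 2 passed, against 4.72% of all genes. Atp1b1 measured 8.01, 8.19 and 7.38 in coronary artery and 5.57 to 6.84 elsewhere, with coronary excesses of 1.93 ± 0.35, 1.82 and 1.72 over ascending aorta, descending aorta and superior mesenteric artery (limma adjusted p = 0.0097, 0.0106 and 0.0155). Without coronary replicate 1 the last 2 had adjusted p-values of 0.0544 and 0.0658 in limma, and without coronary replicate 2 all 3 were between 0.056 and 0.0754. Without descending replicates 1 and 2 the second was 0.0616 and 0.0692, and without superior mesenteric replicate 3 the third was 0.0793. Fxyd5, a pump regulator, measured 10.85, 10.79 and 11.07 in superior mesenteric artery and 9.45 to 10.69 elsewhere. It was 1.12 ± 0.24 above coronary artery and 1.13 above descending aorta (limma adjusted p = 0.0224 and 0.0223). Single arrays decided both calls: limma's adjusted p against coronary artery was 0.0679, 0.116 and 0.101 without coronary replicates 2 and 3 and superior mesenteric replicate 3. Against descending aorta it was 0.0778, 0.117, 0.0529 and 0.0942 without descending replicates 1 and 2 and superior mesenteric replicates 1 and 3. With the B and T cell mean as a covariate the difference from descending aorta was 0.84 (limma adjusted p = 0.0571). Without ascending replicate 1, descending replicate 1 and superior mesenteric replicate 3, it was 1.02 (limma adjusted p = 0.0548). That fit kept superior mesenteric replicate 2 and the coronary arrays, which also held transcripts of other tissue. The F test did not pass in either fit (0.0666 and 0.0706). Of 8 other potassium-permeable channels and 6 cation-chloride cotransporters, 0 passed the F test in limma, against 4.72% of all genes. The smallest F test adjusted p-values were 0.49 for Tmem175, a lysosomal potassium channel, and 0.279 for Slc12a3, the kidney's sodium-chloride cotransporter.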

How the data were processed

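Per the labels' protocols, total RNA was labelled as biotinylated cRNA. The authors deposited log2 values for 35556 probe sets; the submitters' processing notes name RMA and Partek 6.6, and the labels and header give no further detail of the normalization. Probe sets with 1 gene symbol, 21789 in all, gave 19938 genes.

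All genes on 12 arrays were fitted with a mean for each vessel (limma 3.58.1, R 4.3.3, 8 residual degrees of freedom). Benjamini-Hochberg adjustment ran over all genes within the F test and within each of 6 contrasts, at 0.05. The procedure was tested on simulated data. Members past any test, genes of 4 role lists and each family's highest-mean gene were named by rule; other members were named after their values were seen. Members and lists were chosen with earlier results of these data known. Alternatives covered normalization, dim genes, probe sets, weights, variance, block, threshold, covariate and arrays left out. With 3 arrays per vessel, their number limits the precision. Figures used Python 3.11.15 and matplotlib 3.10.9.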

Additional observations from a re-analysis of the deposited data

How the results depend on the processing

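No called contrast of a named gene changed direction under the alternatives run. The count of members past the F test, 5, was 11 with array weights and 10 with the B and T cell mean as a covariate. It was 8 in a fit without superior mesenteric replicate 3 and replicate 1 of each aortic vessel, 3 arrays that held transcripts of another tissue. That fit kept the coronary arrays, high in cardiomyocyte markers, and superior mesenteric replicate 2, high in B cell markers. The count was 4 to 11 when single arrays were left out. Between ascending aorta and coronary artery the count of 7 was 4 at a threshold of 0.01, 11 with the covariate and 3 when only the 6 arrays of the pair were fitted, and 4 to 10 without single arrays. Between coronary artery and descending aorta the count of 5 was 9 with array weights and 9 with only the 6 arrays of the pair, and 4 to 8 without single arrays; against superior mesenteric artery it was 5 to 8 without single arrays. The 0 between ascending aorta and superior mesenteric artery was 3 with array weights and 0 to 4 without single arrays, and the 0 between descending aorta and superior mesenteric artery was 1 with array weights, 1 with the covariate and 0 to 1 without single arrays. The 0 between the 2 parts of the aorta was 0 in every setting run. The cause of these shifts was not tested. Shares of all genes called under each setting are not given beside these counts, so the shifts are not a result about the members. Over the F test and 6 contrasts of all members, the alternatives left 14748 of 14851 tests on the same side of the threshold. The calls lost were 30, in 4 genes, and those gained 73, in 14 genes. Most of these tests had no call to lose in the main fit, so the first number says little about how stable the calls were. Runs for Cav3, Atp1b1 and Fxyd5 were added after their values had been seen, and in the F test Atp1b1 lost its call in 3 alternatives and Fxyd5 in 11. With the replicate number as a block, the F test gave 5 and the contrasts with coronary artery 7, 4 and 5. The calls lost were Kcnj15 between ascending aorta and coronary artery (adjusted p = 0.0504, limma) and Kcnip2 between coronary artery and descending aorta (0.0629). Abcc8 was gained between ascending aorta and coronary artery (adjusted p = 0.0426, limma). The values showed no pairing by number: over 18 pairs of arrays with the same number, correlations of deviations from vessel means ran from -0.251 to 0.0889, 0 of them above 0.1. Arrays differed in tissue content, which could mask pairing, so these correlations cannot exclude it. Signal over background could not be assessed, since no detection calls were used.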
